A study of Mus musculus with 24 samples.

Results

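The 84 genes described here encode proteins of the cytosolic ribosome, 52 of the large (Rpl) and 32 of the small (Rps) subunit, out of 21959 genes counted in mouse aorta. They were taken by name: Rpl or Rps, a number and at most a suffix such as a, x or l, together with Rplp0, Rplp1, Rplp2 and Rpsa. The ribosomal S6 kinases and names of pseudogenes were left out. Some other ribosome components, such as Rack1, fall outside the rule. Of the 84, 81 had enough reads to be tested, and Rpl3l, Rpl10l and Rpl39l did not.

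The libraries came from whole aortas, ascending part to abdominal bifurcation, of male mice in 4 groups. There were 6 ATAD3A knock-in mice given β-aminopropionitrile (ATAD3A-KI-BAPN, here KI-BAPN), 5 knock-in mice on plain water (ATAD3A-KI, here KI), 7 wild-type mice given the drug (WT-BAPN) and 6 wild-type mice on plain water (WT). BAPN, which blocks lysyl oxidase and so the cross-linking of collagen and elastin, was given in the drinking water at 0.5% (w/v) from 3 weeks of age for 28 days to induce aortic aneurysm and dissection. Neither the allele that was knocked in, nor its promoter, nor the strain is given in the labels, and each library is taken as 1 animal.

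Ribosomal proteins are assembled with ribosomal RNA in the nucleolus and are needed in near equal numbers, so their genes are among the most evenly and highly expressed of any cell. Their mRNAs carry a terminal oligopyrimidine (TOP) tract, a C at the cap followed by further C and T, through which mTORC1 and the La-related protein Larp1 control their translation. Most of these genes also left many processed pseudogenes in the mouse genome, which can take up reads of the true gene.

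RefSeq promoter sequences (GRCm38.p6, 250 bases before to 50 after each annotated start) were found for 64 of the 84 genes. At the annotated start, 13 of these 64 genes (20.3%) had a C followed by at least 4 further pyrimidines, against 813 of 27025 genes (3.01%) with a promoter record. The sequences below show the motif that defines these mRNAs, 10 bases before the start and 20 from it on, 5′ to 3′ on the coding strand. Capitals mark the unbroken run of C and T from the first transcribed base.
Rpl15: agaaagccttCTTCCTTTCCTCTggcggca
Rpl35: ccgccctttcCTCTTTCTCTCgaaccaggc
Rps10: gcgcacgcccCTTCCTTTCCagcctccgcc
Rps6: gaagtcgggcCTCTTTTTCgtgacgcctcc
Rpl38: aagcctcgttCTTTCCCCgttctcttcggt
Rps27: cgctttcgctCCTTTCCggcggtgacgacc
The run was 13 bases long in Rpl15 at chr14:18270967-18270996 (minus strand), 11 in Rpl35 at chr2:39005112-39005141 (minus strand) and 10 in Rps10 at chr17:27635225-27635254 (minus strand). It was 9 bases in Rps6 at chr4:86857348-86857377 (minus strand), 8 in Rpl38 at chr11:114668570-114668599 (plus strand) and 7 in Rps27 at chr3:90213629-90213658 (minus strand). The remaining 7 of the 13 were Rps18, Rpl28, Rps15a, Rpl35a, Rpl14, Rps21 and Rplp2, with 5 to 9 bases.

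Other members had no such run at the annotated start, among them Rpl24, whose counts behaved differently, and the minor paralogues Rpl22l1 and Rpl39l.
Rpl24: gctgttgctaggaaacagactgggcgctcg
Rpl22l1: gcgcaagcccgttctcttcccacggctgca
Rpl39l: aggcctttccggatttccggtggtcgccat
These windows lie at chr16:55966265-55966294 (plus strand), chr3:28805498-28805527 (plus strand) and chr16:10170218-10170247 (plus strand). An annotated start can lie some bases from the start used in aorta, so the absence of a run says only that these letters are not at this position.

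The 6-base core recognised by ETS-family factors, CCGGAA, searched on both strands, occurred in 35 of the 64 promoters (54.7%), against 16.7% of all promoters of the same length. GGGCGG, the core bound by Sp1, occurred on either strand in 40 of 64 (62.5%), against 38.2% of all. Both shares describe letters in a window and were not related to any measurement of binding. Examples of CCGGAA (capitals) on the coding strand are given for 3 genes, starting 62, 91 and 26 bases before the annotated start of Rpl15, Rps6 and Rps21.
Rpl15: tacaatgccccaCCGGAAggagggtcgccg
Rps6: gttaatctacgcCCGGAAgtaacgcccctc
Rps21: gagtaccctgacCCGGAAgcacttaccgag
The windows are chr14:18271031-18271060 (minus strand), chr4:86857441-86857470 (minus strand) and chr2:180257341-180257370 (plus strand).

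Totals ran from 13127645 to 26490651 counts per library. Atad3a, the targeted gene, lay between 231 and 1038 CPM in KI-BAPN libraries against 24.9 to 44.8 CPM in WT-BAPN libraries, and between 618 and 1629 CPM in KI against 30.2 to 61.4 CPM in WT libraries, so every library matched its genotype. CPM, edgeR's depth-scaled counts, use library totals adjusted by the TMM method. All 6 smooth muscle markers, such as Acta2 and Myh11, were measured in every library, with summed levels of 10148 to 38784 CPM in KI-BAPN, 22779 to 52094 CPM in KI, 14559 to 41853 CPM in WT-BAPN and 8587 to 55275 CPM in WT aortas. WT replicate 5 also held 5534 CPM of skeletal muscle markers and 16941 CPM of airway epithelium markers, and KI replicates 1, 2 and 5 held 72.2 to 1037 CPM of sympathetic neuron markers, against 6.14 to 22.3 CPM of the same markers in the remaining libraries. These 4 libraries are said below to hold RNA of other tissue, and results are given without them where the value turns. Without them the KI group keeps only replicates 3 and 4. Adipocyte marker sums were highest in KI replicate 5 with 7920 CPM and KI-BAPN replicate 3 with 7719 CPM, against 103.5 to 2337 CPM in the remaining libraries. KI-BAPN replicate 3 also had the highest erythroid sum, 2923 CPM, where the remaining libraries had 22.1 to 1557 CPM. It is not 1 of the 4, and results are given without it by itself.

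Reads of the 84 genes made up 5.48 ± 1.91% of all counts in KI-BAPN (SD, n = 6), 4.36 ± 0.959% in KI (n = 5), 3.49 ± 1.07% in WT-BAPN (n = 7) and 4.54 ± 0.534% in WT aortas (n = 6). The share ran from 2.97 to 8.52% in KI-BAPN, 3.23 to 5.37% in KI, 2.61 to 5.56% in WT-BAPN and 3.83 to 5.37% in WT libraries, so all 4 groups overlapped. Within WT-BAPN, replicates 2 to 6 lay between 2.61 and 3.50%, below every WT library, while replicate 1 stood at 4.13% and replicate 7 at 5.56%. Within KI-BAPN, replicate 3 was the highest of all 24 libraries at 8.52% and replicate 4 was low at 2.97%. The 95% Wilson intervals of these shares, which cover counting error only, were no wider than 8.51 to 8.54%, far narrower than the spread between animals. Large subunit genes took 3.03% of counts in KI-BAPN, 2.42% in KI, 1.95% in WT-BAPN and 2.53% in WT aortas, and small subunit genes 2.46, 1.94, 1.54 and 2.01% in the same 4 groups. In such tissue libraries fewer cells with many ribosomal mRNAs and less ribosomal mRNA per cell cannot be told apart.

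**Figure D1:**
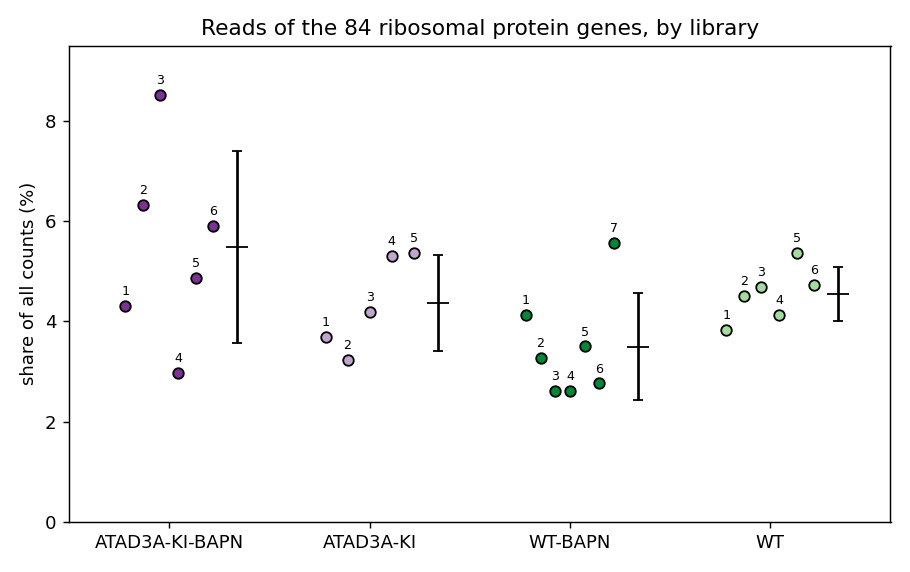
Share of all counts (%, y axis) on the 84 ribosomal protein genes in each of the 24 libraries, by group; numbers beside the points are replicate numbers, and the bar beside each group is the mean with its SD. WT-BAPN replicates 2 to 6 sit between 2.61 and 3.50%, and KI-BAPN replicates spread from 2.97 to 8.52%.

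The 81 tested genes moved together from library to library. The first principal component of their log2 CPM held 83.1% of the variance over the 24 libraries. In WT-BAPN replicates 2 to 6 only 1 to 3 of the 81 genes were at or above their median over all libraries, against 75 in WT-BAPN replicate 7 and 21 in replicate 1. In KI-BAPN this count was 80 in replicate 3, 78 in replicate 2, 77 in replicate 5, 68 in replicate 6, 32 in replicate 1 and 2 in replicate 4. In KI it was 77 and 78 in replicates 5 and 4, 31 in replicate 3, 7 in replicate 1 and 2 in replicate 2. The 6 WT libraries had counts of 35 to 78. The SD over libraries of the mean log2 CPM of the 81 genes was 0.562 in KI-BAPN, 0.403 in KI, 0.496 in WT-BAPN and 0.0904 in WT, the smallest of the 4.

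**Figure D2:**
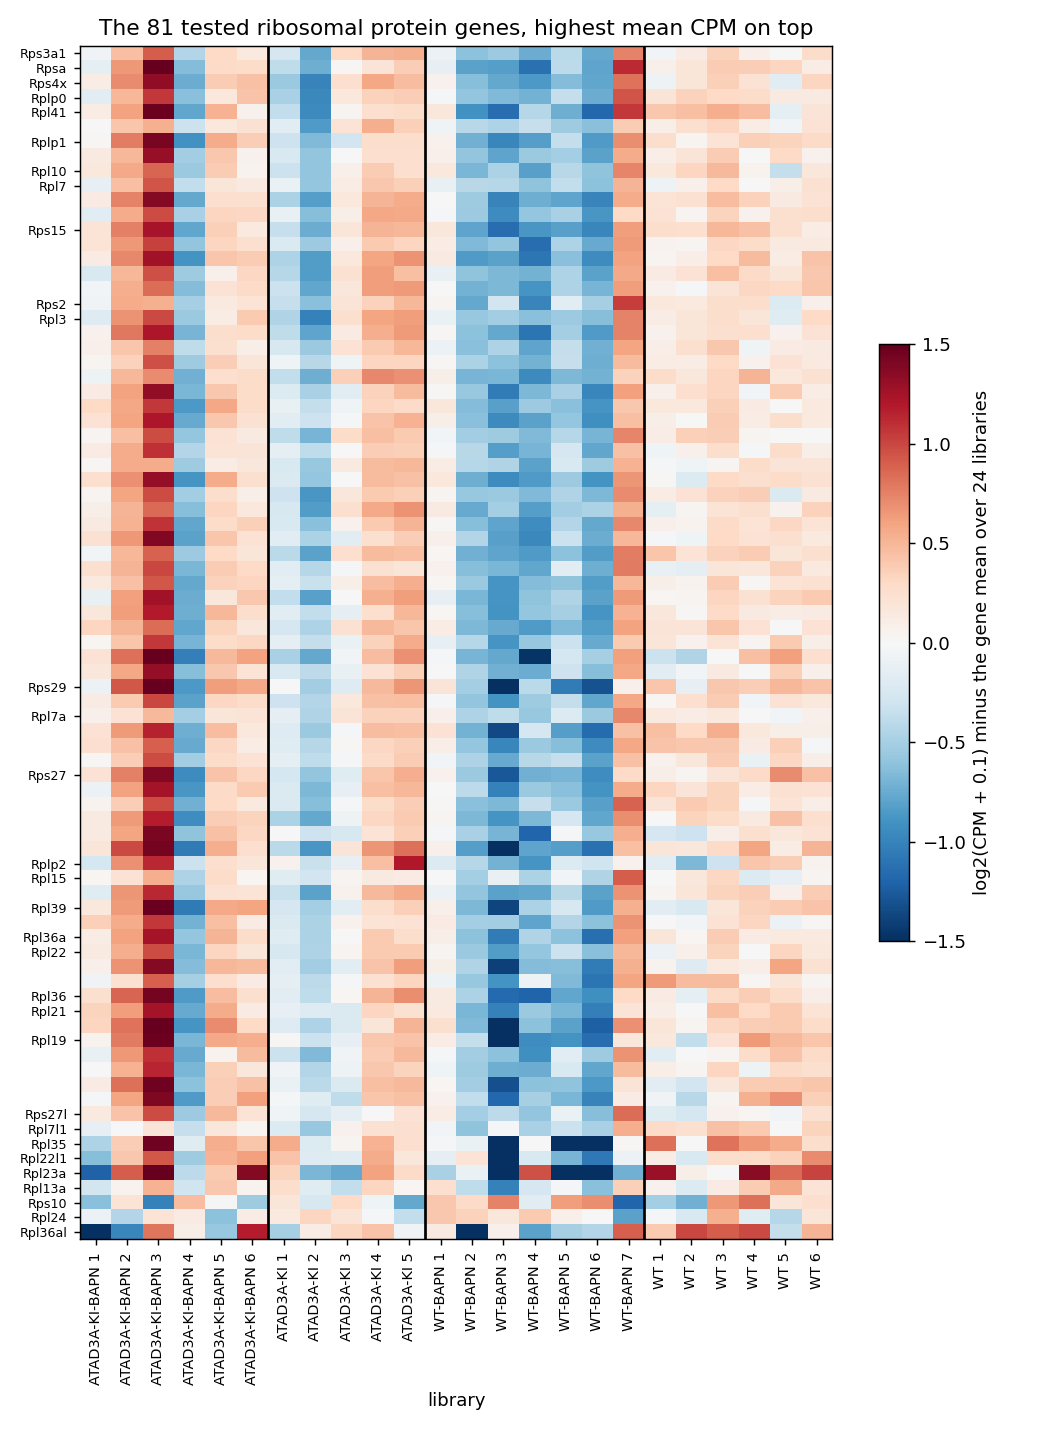
Deviation of each of the 81 tested genes (rows, highest mean CPM on top, labelled for members described in the text) from its own mean over the 24 libraries (columns, grouped with black lines), as log2 of CPM plus 0.1; red is above and blue below the mean. Columns of one colour dominate, with KI-BAPN replicate 3 red and WT-BAPN replicates 2 to 6 blue.

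Other measures also differed between these libraries, not all of them in step with the ribosomal share. For non-ribosomal genes with a mean log2 CPM above 3, a smooth curve of each library's log2 ratio against gene length was fitted. For a length of 1 kb it stood at 0.61 in KI-BAPN replicate 3 and at 0.41 in WT-BAPN replicate 7. It stood at -0.30 to -0.41 in WT-BAPN replicates 2 to 6 and at -0.33 in KI-BAPN replicate 4. KI-BAPN replicate 3, the library rich in adipocyte and erythroid markers, also had the highest macrophage marker sum of the 24 libraries, 1337 CPM over all 6 markers, where the other KI-BAPN libraries had 126 to 710 CPM, KI 37.1 to 143 CPM, WT-BAPN 62.8 to 529 CPM and WT 33.3 to 653 CPM. WT-BAPN replicate 7 had the highest sum of 5 proliferation markers, 331 CPM, where its 6 fellow WT-BAPN aortas had 13.7 to 139 CPM, with 16.2 to 74.5 CPM in KI-BAPN, 2.45 to 22.1 CPM in KI and 7.70 to 41.6 CPM in WT aortas. No macrophage or proliferation marker was at 0 in any library. WT-BAPN replicates 2 and 5, low in ribosomal share, had 529 and 437 CPM of macrophage markers, and KI replicate 5, with a share of 5.37%, had 80.9 CPM. The mean log2 CPM of the proliferation markers was 3.23 to 4.65 in WT-BAPN replicates 3 to 6, also low in share. It was 1.78 in KI-BAPN replicate 2, with a share of 6.33%. The part of gene length and of these cell types and tissues in the ribosomal share was not tested.

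Compared per kilobase of the length in the deposited table, the highest level was that of Rplp1, an acidic protein of the stalk that recruits elongation factors, with 2149.7 CPM per kb as a mean over the 24 libraries. It was followed by Rps15 with 1412, Rps3a1 with 1352, Rpl41 with 941 and Rpl36 with 778 CPM per kb. Rpl41 encodes the smallest member, with 75 coding bases, and the longest coding sequence is that of Rpl4 with 1257 bases. The lowest tested members were Rpl22l1 with 17, Rpl13a with 7.16, Rps10 with 1.73, Rpl24 with 1.26 and Rpl36al with 0.282 CPM per kb. The deposited length joins all exons of a gene and exceeded its main coding transcript by a median factor of 2.35 over the 84 genes (range 1 to 13.4), so levels per kb are too low for genes with long minor exons. Per kb of the main coding transcript the order turned, with 2514 CPM per kb for Rpl41 and 2217 for Rps24 above 2149.7 for Rplp1.

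Rpl13a, Rpl24, Rpl36al and Rps10 each overlap another annotated gene on the same strand (Gm45713, Gm28037, Gm49383 and RPS10-NUDT3), and their mean counts were 312, 26.7, 7.83 and 81.1 reads per library. Rpl19 shares its strand with an annotated miRNA gene, Gm27597, and had a mean count of 5928 reads. Gm45713, Gm49383 and RPS10-NUDT3 had a mean count of 0 reads, and Gm28037 and Gm27597 were not among the genes counted. How reads in overlapping genes were counted is not given in the sources used here, and the part of the overlap in these levels was not tested. Of the 84 genes, 80 share at least 1 window of 75 bases with a transcript of another gene, and 44 share more windows than they keep to themselves. Counts of single members are therefore uncertain, and levels of Rpl13a, Rpl24, Rpl36al and Rps10 are reported only as counted.

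Among proteins of the stalk and its base, Rplp0, which anchors the acidic proteins, had 748, 1424 and 2418 CPM as its lowest, median and highest level in KI-BAPN, 824, 590.1, 1289, 1469 and 1489.9 CPM in KI, 693, 765 and 2225 CPM in WT-BAPN and 1270.4, 1366 and 1468 CPM in WT libraries. The 6 WT libraries were tightly grouped, 6 of 7 WT-BAPN libraries lay below all of them, and WT-BAPN replicate 7 lay above all of them. Rplp1 averaged 1427 ± 718 CPM in KI-BAPN (SD, n = 6) and 916 ± 249 CPM in KI aortas (n = 5), a log2 difference of 0.64 ± 0.33 (SE) with an edgeR adjusted p of 0.523, the smallest of any member in that comparison. On BAPN its log2 difference between KI and WT was 0.84 ± 0.30 (SE), adjusted p = 0.268 by edgeR, with 524, 1359 and 2648 CPM as lowest, median and highest in KI-BAPN and 497, 596 and 1599 CPM in WT-BAPN libraries, which overlapped. Rplp2 departed from its partners in KI replicate 5, with 782 CPM against 269.8 to 464 CPM in the other KI libraries and 213 to 452 CPM in WT, and had the highest log2 difference of any member between KI and WT on plain water, 0.37 ± 0.28 (SE) (edgeR adjusted p = 0.539).

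Rpsa, the small subunit protein also known as the laminin receptor, was the second most counted member. Its lowest, median and highest levels were 737, 1404 and 3511 CPM in KI-BAPN, 534, 666 and 2504 CPM in WT-BAPN and 1215, 1378 and 1504 CPM in WT libraries, and the 5 KI libraries had 890.5, 698, 1167, 1326 and 1497 CPM. The highest level of each BAPN group came from a single animal, KI-BAPN replicate 3 and WT-BAPN replicate 7, and the groups overlapped. Its log2 difference between KI-BAPN and WT-BAPN was 0.74 ± 0.34 (SE), with an edgeR adjusted p of 0.343.

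**Figure D3:**
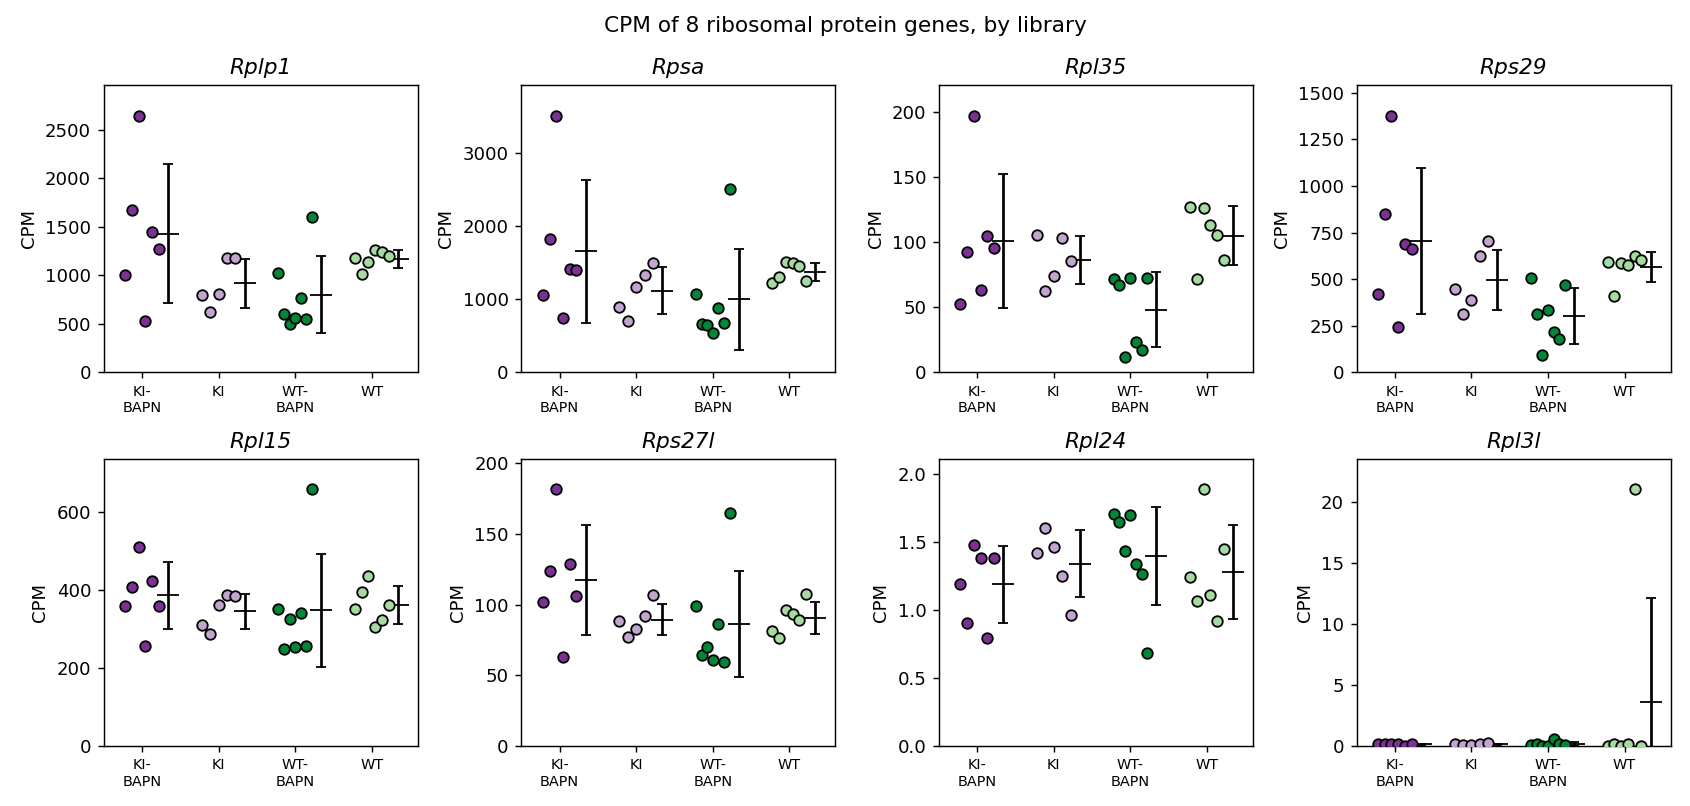
CPM (y axis, linear from 0) of 8 members in each library, by group, with the mean and SD beside each group. Rplp1, Rpsa and Rps29 show low WT-BAPN libraries with WT-BAPN replicate 7 apart for Rpsa, Rpl35 splits WT-BAPN into 3 libraries of 11.5 to 23.1 CPM and 4 of 66.8 to 72.4 CPM, and Rpl3l reaches 21.05 CPM in WT replicate 5 with at most 0.544 CPM elsewhere.

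Comparing WT-BAPN with WT aortas asks what the drug does to these genes in wild type. The median log2 difference of the 81 genes was -0.48, against -0.04 over all 14216 genes tested, and 79 of the 81 were lower in WT-BAPN. None passed an adjusted p of 0.05 in edgeR's quasi-likelihood test over all genes, where 6.14% of all genes passed. At an unadjusted p under 0.05, 28 of 81 were lower (34.6%) and 0 higher, where 12.5% of all genes were lower. With tissue scores as covariates, which cover skeletal muscle, adipocyte, and T and B cell markers only, the 28 became 4. It became 75 without WT-BAPN replicate 7 and 12 to 16 without WT-BAPN replicates 2, 3, 4, 5 or 6. Without WT replicates 3, 4 or 6 it became 15 to 17. The range over members was -1.41 to 0.13, with a median SE of 0.26, and large and small subunit genes had medians of -0.50 and -0.47.

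The number of members called in this comparison depended on the method and on single animals. DESeq2 called 4 members lower, where it called 10.5% of all genes, and limma voom with quality weights called 76 lower, where it called 29.7% of all genes. The 4 members DESeq2 called were Rpl35, Rpl23a, Rpl21 and Rpl19. Without WT-BAPN replicate 7, edgeR called 28 members lower, where it called 11.3% of all genes, and the median log2 difference was -0.72. Without WT-BAPN replicate 1 it called Rpl21 alone, and without replicate 4 Rpl23a alone. Smooth muscle marker sums of WT-BAPN replicates 2 to 6 were 14559 to 30220 CPM, lower than the 38647 and 41853 CPM of replicates 1 and 7. In other groups low sums also occurred at a high ribosomal share, 10148 CPM in KI-BAPN replicate 3 (8.52%) and 8587 CPM in WT replicate 5 (5.37%). The part of smooth muscle content in these calls was not tested.

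Between KI-BAPN and WT-BAPN aortas, which asks how the genotypes differ under the drug, the members stood higher in KI-BAPN. The median log2 difference was 0.67, against -0.02 over all genes tested, and 79 of 81 members were higher. None passed the adjusted threshold in edgeR, where 0.00703% of all genes did (1 gene). At an unadjusted p under 0.05, 64 of 81 members were higher (79.0%) and 0 lower, where 7.27% of all genes were higher and 6.68% lower. The 64 became 23 without KI-BAPN replicate 3 and 35 with tissue scores as covariates. The smallest adjusted p was 0.243, for Rpl19. DESeq2 called 7 members higher, among them Rpl19, Rps29, Rpl21 and Rpl36, where it called 0.197% of all genes, and limma voom called 0. The median became 0.45 without KI-BAPN replicate 3 and 0.88 without WT-BAPN replicate 7. This comparison and that of WT-BAPN with WT use the same 7 WT-BAPN libraries, so their opposite signs are not separate observations.

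KI-BAPN and KI aortas, the drug within the knock-in, had the members slightly higher on BAPN. The median log2 difference of the members was 0.31, against -0.03 over all genes, and 78 of 81 were higher in KI-BAPN. None passed in edgeR, where 0.0352% of all genes did, and 0 of 81 members had an unadjusted p under 0.05, where 4.89% of all genes were higher at that level. The median was 0.09 without KI-BAPN replicate 3, 0.18 without KI replicate 2 and 0.14 without the 4 libraries with RNA of other tissue. It was 0.45 without KI-BAPN replicate 4, with 19 members at an unadjusted p under 0.05, and 0.41 and 0.42 without KI replicates 4 and 5.

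KI and WT aortas on plain water had a median log2 difference of -0.11 over the members, against -0.01 over all genes, with 74 of 81 lower in KI. None passed in edgeR, where 0.19% of all genes did, and 0 members had an unadjusted p under 0.05, where 8.27% of all genes were lower at that level. Without KI replicate 2 the median was -0.00054, without KI replicates 4 or 5 it was -0.21 in each case, and without the 4 libraries with RNA of other tissue it was 0.03. DESeq2 and limma voom called 0 members here and for the drug within the knock-in.

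The genotype by BAPN interaction sets the drug's log2 effect in the knock-in against that in wild type. Its median over the members was 0.79, against 0.01 over all genes, and 79 of 81 were above 0. No member passed in edgeR, nor did any other gene (0% of 14216). At an unadjusted p under 0.05, 38 of 81 members were above 0 (46.9%), where 6.64% of all genes were. Without the 4 libraries with RNA of other tissue, which leaves KI replicates 3 and 4 only, the 38 became 2. With tissue scores as covariates it became 13. It became 10 and 24 without KI-BAPN replicates 3 and 2, 13 and 17 without KI replicates 2 and 1, and 25 without WT-BAPN replicates 3 or 6. It became 63 without KI-BAPN replicate 4 and 72 without WT-BAPN replicate 7. The smallest adjusted p was 0.280, for Rpl21, and DESeq2 and limma voom called 0 members. With single libraries left out, the median ran from 0.58 without KI-BAPN replicate 3 to 1.04 without WT-BAPN replicate 7. It was 0.65 with an offset for deposited gene length and 0.53 with one for coding transcript length. It was 0.60 without the 4 libraries with RNA of other tissue and 0.77 with tissue scores as covariates.

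**Figure D4:**
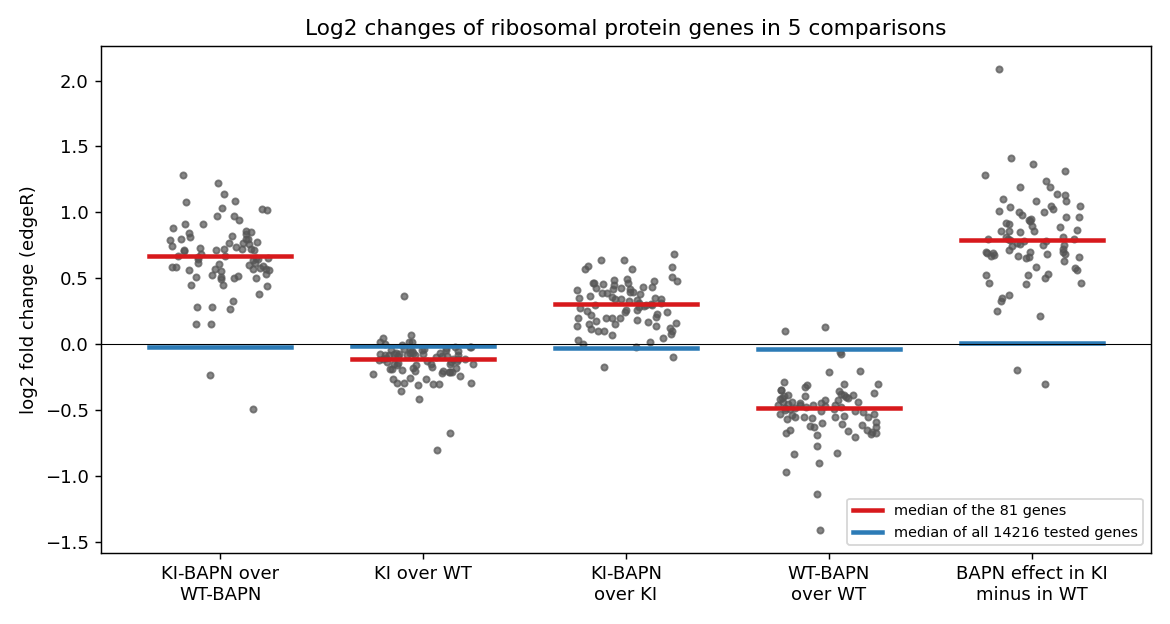
Log2 fold change (y axis, edgeR) of each of the 81 tested members (grey points) in the 5 comparisons, with the median of the members in red and of all 14216 tested genes in blue; points are spread sideways at random. The members lie around 0.67 for KI-BAPN over WT-BAPN and around -0.48 for WT-BAPN over WT, away from the blue lines.

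The members with the largest differences included short mRNAs of the small subunit. Rps29, one of the shortest ribosomal proteins, had 244, 674 and 1378 CPM as lowest, median and highest in KI-BAPN and 93.6, 314 and 508 CPM in WT-BAPN libraries, a log2 difference of 1.22 ± 0.35 (SE) and an edgeR adjusted p of 0.243. In WT libraries it had 408, 589.7 and 625 CPM, and the WT-BAPN to WT difference was -0.90 ± 0.35 (SE), adjusted p = 0.114 by edgeR. Only WT replicate 2, at 408 CPM, lay within the range of WT-BAPN. Rps27, a zinc finger protein of the small subunit, showed the same order. Its means were 613 ± 298 CPM in KI-BAPN, 445 ± 148 CPM in KI, 313 ± 125 CPM in WT-BAPN and 534 ± 97.7 CPM in WT aortas. Of its windows, 98.5% recur in transcripts of other genes, among them Rps27rt.

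In the large subunit, Rpl23a, which lines the exit of the nascent chain, had the widest differences, with log2 values of -1.41 ± 0.50 (SE) for WT-BAPN over WT and 1.28 ± 0.50 (SE) for KI-BAPN over WT-BAPN. Its edgeR adjusted p was 0.0865 in the first and 0.278 in the second. It was counted at only 7.39, 27.5 and 52.9 CPM in KI-BAPN and 3.35, 10.4 and 33.4 CPM in WT-BAPN libraries as lowest, median and highest, and 81.7% of its windows recur in other transcripts, 16 of the other genes being pseudogenes.

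Rpl35, also near the exit tunnel, stood at separate levels within WT-BAPN, with 11.5, 17.2 and 23.1 CPM in replicates 3, 6 and 5 and 66.8 to 72.4 CPM in the remaining 4. Its lowest, median and highest were 52.1, 93.9 and 197 CPM in KI-BAPN, 11.5, 66.8 and 72.4 CPM in WT-BAPN and 71.2, 109 and 127 CPM in WT libraries, and the 5 KI libraries had 105, 62.1, 73.7, 103 and 85 CPM. The log2 difference of WT-BAPN from WT, -1.13 ± 0.37 (SE), had the smallest edgeR adjusted p of any member, 0.0661. Of the windows of Rpl35, 89.2% recur in transcripts of other genes, among them the protein-coding Wdr38 and Gm2000. Rpl19, Rpl21 and Rpl36 differed between KI-BAPN and WT-BAPN by 1.14 ± 0.30 (SE), 0.91 ± 0.25 (SE) and 1.03 ± 0.29 (SE) on the log2 scale, with an edgeR adjusted p of 0.243 for each.

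Some members had small differences over all libraries, which were larger without WT-BAPN replicate 7. The median of all members moved too without it, from 0.67 to 0.88 between KI-BAPN and WT-BAPN and from -0.48 to -0.72 between WT-BAPN and WT. Rpl15, which has the longest tract shown above, had means of 387 ± 85.3 CPM in KI-BAPN, 346 ± 45.1 CPM in KI, 348 ± 144 CPM in WT-BAPN and 362 ± 48.2 CPM in WT aortas, with log2 differences of 0.15 between KI-BAPN and WT-BAPN and -0.06 between WT-BAPN and WT. Without that library the 2 differences of Rpl15 were 0.39 and -0.29. Rps2 and Rpl7a differed between KI-BAPN and WT-BAPN by 0.28 ± 0.27 (SE) and 0.26 ± 0.20 (SE), and by 0.60 and 0.47 without WT-BAPN replicate 7. Rpl15, Rpl7a, Rps2, Rpl19 and Rpl21 were chosen after their values were seen. Rpl24 and Rps10 ran against the rest, with log2 differences of -0.23 and -0.49 between KI-BAPN and WT-BAPN and 0.13 and 0.10 between WT-BAPN and WT. Both are among the members that overlap another gene.

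Paralogues were set beside their main copies. Rpl3l, the striated muscle form of Rpl3, lay between 0 and 0.544 CPM in every library except WT replicate 5, where it reached 21.05 CPM, the library with 5534 CPM of skeletal muscle markers. Rpl3 itself averaged 951 ± 366 CPM in KI-BAPN, 828 ± 354 CPM in KI, 644 ± 284 CPM in WT-BAPN and 839.8 ± 92.6 CPM in WT aortas. Rpl10l and Rpl39l, known from testis, had 0 reads in all libraries and at most 0.801 CPM, beside 1003 CPM for Rpl10 and 354 CPM for Rpl39 as means over the 24 libraries. Rpl36al, at 0.382 CPM, stood beside 314 CPM for Rpl36a. Rps4l is not analysed here, and Rps4x averaged 1257 CPM.

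Rpl7l1, a nucleolar paralogue of Rpl7, was counted far lower than Rpl7. Its means were 81.5 ± 10.9 CPM in KI-BAPN and 80.4 ± 17.7 CPM in KI, against 73.4 ± 22.6 CPM in WT-BAPN and 99.5 ± 10.2 CPM in WT aortas. The log2 difference of WT-BAPN from WT was -0.44 ± 0.16 (SE) with an edgeR adjusted p of 0.103, and 0.0137 without WT-BAPN replicate 7, while KI-BAPN and WT-BAPN differed by only 0.15. For Rpl7 the corresponding values were -0.35 and 0.50. Rpl22l1, the paralogue that Rpl22 represses, averaged 33.8 CPM beside 308 CPM for Rpl22, and their log2 differences between KI-BAPN and WT-BAPN were 0.73 and 0.60. Rps27l, a p53 target, had a log2 difference of -0.07 between WT-BAPN and WT where Rps27 had -0.77, and 0.45 where Rps27 had 0.97 between KI-BAPN and WT-BAPN. The differences between paralogues were not tested.

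Short genes shifted as a class in some libraries, so the members were set against other genes of like length. These other genes had a mean log2 CPM above 3, a cut not applied to the members. By length of the main coding transcript, the 44 members under 750 bases had a median log2 difference of 0.73 between KI-BAPN and WT-BAPN, where 316 other genes of that length had 0.30. The 20 members of 750 to 1000 bases had 0.62, where 363 other genes had 0.23. For WT-BAPN against WT, members and other genes under 750 bases had medians of -0.53 and -0.15, and from 750 to 1000 bases -0.44 and -0.13. The members were thus further from 0 than other genes of their length in both comparisons, and both medians were nearer 0 in the longer class. Within the members, the 27 with the shortest coding sequences (up to 390 bases) had a median of 0.79 between KI-BAPN and WT-BAPN, the middle 27 had 0.72 and the 27 longest (from 576 bases) 0.54. An offset that removes each library's length curve, fitted on other genes by coding transcript length, gave member medians of 0.41 for KI-BAPN over WT-BAPN, 0.12 for KI-BAPN over KI, -0.10 for KI over WT and -0.39 for WT-BAPN over WT. The planned offset by deposited length gave 0.57, 0.21, -0.10 and -0.42 in the same order. By deposited length, the 5 members under 750 bases had a median of 1.03 between KI-BAPN and WT-BAPN, where 58 other genes had 0.63.

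**Figure D5:**
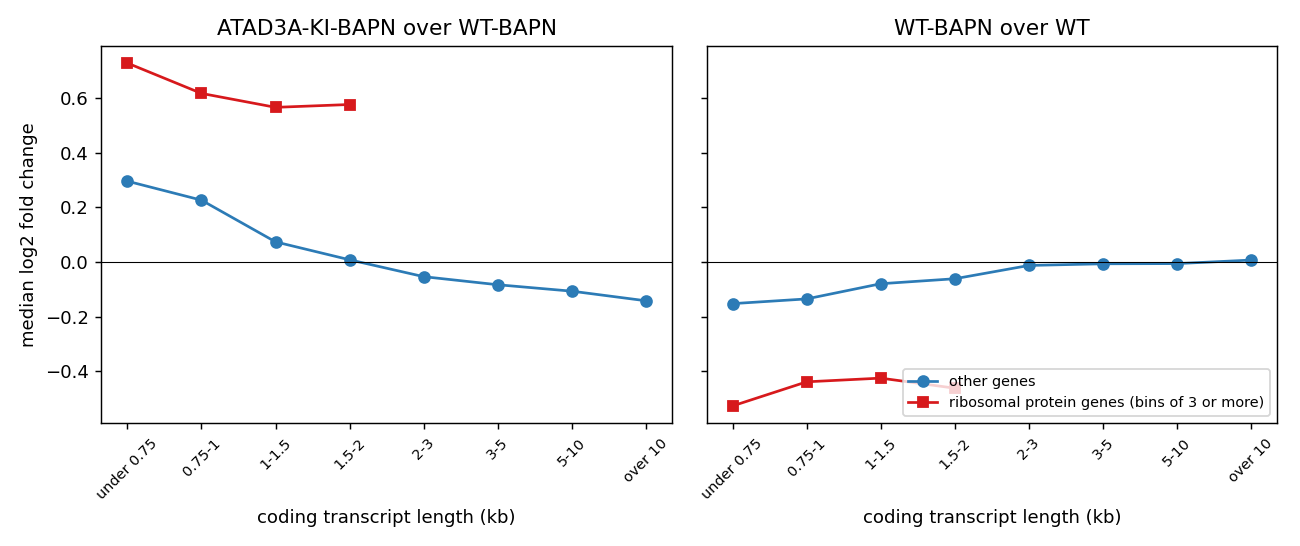
Median log2 fold change (y axis, edgeR) by length of the main coding transcript in kb (x axis, 8 bins). KI-BAPN over WT-BAPN is on the left and WT-BAPN over WT on the right. Blue circles are other tested genes with a mean log2 CPM above 3. Red squares are ribosomal protein genes, without that cut, in bins with at least 3 of them. Blue lines slope with length, and red squares lie at 0.73 to 0.57 on the left and at -0.53 to -0.42 on the right.

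Members with and without a TOP run at the RefSeq start had medians close to each other. The split goes by that exact base only. Starting within 10 bases of it, 24 of the 64 genes (37.5%) had a C followed by at least 7 pyrimidines, against 9.43% of all genes. Rpl27a and Rpl7a are among these and have no run at the start itself. The split thus does not separate members with a TOP tract from members without one. Between KI-BAPN and WT-BAPN the 13 with a run had a median log2 difference of 0.66 and the 48 tested members without one 0.60, and between WT-BAPN and WT the medians were -0.50 and -0.46.

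Genes of related function gave the following. Rack1, a scaffold on the small subunit that falls outside the naming rule, averaged 859 ± 282 CPM in KI-BAPN (SD, n = 6), 786 ± 259 CPM in KI (n = 5), 626 ± 292 CPM in WT-BAPN (n = 7) and 786 ± 40.6 CPM in WT (n = 6). Of 18 other TOP mRNAs, such as the elongation factors Eef1a1 and Eef2 and Tpt1, 0 were called by edgeR by adjusted p. At an unadjusted p under 0.05, 6 were higher and 1 lower between KI-BAPN and WT-BAPN, where 7.27% of all genes were higher and 6.68% lower. Between WT-BAPN and WT 2 were lower at that level, where 12.5% of all genes were. Their medians were 0.29 between KI-BAPN and WT-BAPN and -0.14 between WT-BAPN and WT. Of 21 genes of mTORC1 and TOP regulation 0 were called by edgeR by adjusted p, 4 were higher at the unadjusted level between KI-BAPN and WT-BAPN and 1 lower between WT-BAPN and WT, beside the same shares of all genes. Their medians were 0.00 and -0.06 in these comparisons.

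Translation initiation factors and assembly factors held members that passed between WT-BAPN and WT, while none passed in the other comparisons. Among 24 initiation factors 4 fell and 0 rose, where 6.14% of all genes were called in either direction, with a list median of -0.42 against -0.04 over all genes. Eif5b, which joins the subunits, fell by 0.97 on the log2 scale (SE 0.24, edgeR adjusted p = 0.0248), Eif5, the GTPase-activating factor, by 0.50 (SE 0.13, adjusted p = 0.0301) and Eif3d, a cap-binding subunit, by 0.69 (SE 0.20, adjusted p = 0.0444). The fourth was the helicase Eif4a1. Left out singly, WT replicates 1, 3, 4 and 6 and WT-BAPN replicates 2 to 6 each left 0 to 2 calls. In those fits 2.3 to 4.73% of all genes were called. Leaving out WT-BAPN replicate 7 left 14, where 11.3% of all genes were then called. Of 21 genes of ribosome assembly and its chaperones 7 fell and 0 rose, beside the same 6.14% of all genes, with a list median of -0.42. They included Nop56, a core protein of box C/D particles, which fell by 0.54 (SE 0.11, edgeR adjusted p = 0.0122), the methyltransferase Fbl, which fell by 0.71 (SE 0.16, adjusted p = 0.0190), and nucleolin (Ncl), which fell by 0.57 (SE 0.14, adjusted p = 0.0232). Without WT replicate 1 there were 2 calls, where 2.3% of all genes were called. Without WT-BAPN replicates 2, 3, 5 or 6 there were 3 or 4, where 2.48 to 3.55% of all genes were called. Without WT-BAPN replicate 7 there were 12, beside the same 11.3%. Between KI-BAPN and WT-BAPN the assembly list had a median of 0.03, where the ribosomal protein genes had 0.67.

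Mitochondrial ribosomal proteins, which translate the mRNAs of the mitochondrial genome, were listed after the data were seen. Between KI-BAPN and WT-BAPN edgeR called 0 of 77, with 33 higher and 0 lower at an unadjusted p under 0.05, where 7.27% of all genes were higher, and a median log2 difference of 0.30. Between WT-BAPN and WT 9 of 77 were lower and 0 higher at that level, where 12.5% of all genes were lower, with a median of -0.18. Mrps7 was the 1 gene of 77 called in that comparison, where 6.14% of all genes were called. It fell by 0.56 on the log2 scale (SE 0.17, edgeR adjusted p = 0.0465).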

How the data were processed

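The deposited table holds raw read counts per gene, made by the authors, for 24 poly(A) RNA-seq libraries; 0 per-sample columns were left unmatched. The submitters' processing notes name GRCm38 and mm10 as builds, and HISAT2, Trim Galore, FastQC and DESeq2 as tools. Counter and strand setting are not given in those sources, so a gene cannot be separated from an antisense or overlapping neighbour. The deposited gene length matched the exon union of GENCODE M21 within 5% for all 84 members, but only 1 has that annotation's coordinates, so the build of the table's coordinates is open and none is printed.

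These counts were tested with edgeR 4.0.16 (R 4.3.3), all 24 libraries in 1 fit with a mean for each group (TMM, filterByExpr by group, robust quasi-likelihood F test). Benjamini-Hochberg adjustment ran over all 14216 genes tested, and an adjusted p under 0.05 was a call. Wilson intervals of shares cover counting error only. Log2 CPM used a prior count of 2. Alternatives were DESeq2 1.42.0, limma voom 3.58.1 with quality weights, DESeq2's size factors, TMM without members, 2 other filters, only the groups compared, tissue scores as covariates, a length offset, the replicate block, another threshold and each library left out. The tissue scores were the mean log2 CPM of skeletal muscle markers, of adipocyte markers, and of T and B cell markers. Smooth muscle, macrophage, erythroid, neuron and airway markers were not among them. A coding transcript length offset, a set without the 4 overlapping members and a set without 4 libraries were added after the data were seen. Steps were tested on simulated data. Replicate numbers were not said to pair animals, and p-values measure the spread between these libraries. Libraries of 1 group differed, with a smallest chi-square per degree of freedom of 30.8.

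Members and lists were chosen with earlier results of these data known. Named members were, per comparison, up to 8 called in each direction and the 2 largest differences each way; the 5 highest and 5 lowest tested per kb; 8 paralogue pairs; the stalk genes and Rpsa; and up to 3 called in each direction from each list. Sequences come from RefSeq, GRCm38.p6, matched by symbol.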

Additional observations from a re-analysis of the deposited data

Results flagged for a closer look

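Single libraries stood apart from their group in 16 of 128 groups examined over the named genes and the ribosomal share, by the gap of the highest or lowest library to its neighbour relative to the range (Dixon's 95% value). Chance marks about 1 in 20 groups, and members that move together are not separate tests. Several of these genes were named for large differences in these data, and Rpl15, Rpl7a, Rps2, Rpl19 and Rpl21 after their values were seen. The count of 16 can therefore not be set against that rate. WT-BAPN replicate 7 was the highest of 7 libraries for Rpsa with 2504 CPM (the other WT-BAPN libraries 534 to 1065 CPM), Rplp0 with 2224.5 CPM (693 to 1147 CPM), Rps3a1 with 2099 CPM (738 to 1178 CPM) and Rpl41 with 2051 CPM (438 to 1114 CPM). The same library was highest for Rps4x with 2018 CPM, Rps2 with 1599 CPM, Rpl7 with 1371 CPM and Rpl3 with 1264 CPM. It was also highest for Rpl7a with 799.9 CPM, Rpl15 with 659 CPM, Rps27l with 165 CPM and Rpl7l1 with 119 CPM, and lowest for Rpl24 with 0.681 CPM (the others 1.26 to 1.71 CPM).

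WT-BAPN replicate 4 was highest for Rpl23a with 33.4 CPM, beside 3.35 to 16.1 CPM for the 6 remaining animals of that group. KI-BAPN replicate 3 was highest for Rpl35 with 197 CPM, beside 52.1 to 104 CPM for the remaining 5. WT replicate 2 was lowest for Rps29 with 408 CPM, beside 574 to 625 CPM for the remaining 5 WT animals.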

How the results depend on the processing

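For WT-BAPN against WT, edgeR called 0 members (6.14% of all genes), DESeq2 4 (10.5%) and limma voom 76 (29.7%). The length offset called 1 (7.63% of all genes) and the coding transcript length offset 5 (7.62%). An adjusted p under 0.1 called 4, for which no share of all genes was taken. All these calls were lower in WT-BAPN. Leaving out 1 library at a time gave 0 to 28 calls, where 2.3 to 11.3% of all genes were called. For KI-BAPN against WT-BAPN, DESeq2 called 7 members (0.197% of all genes) and the other settings 0. The replicate block called 4 members between WT-BAPN and WT (Rpl7l1, Rpl27, Rpl28 and Rpl18), where it called 7.2% of all genes. It also called 11 of 24 initiation factors and 12 of 21 assembly genes in that comparison. Number 7 occurs only in WT-BAPN, so the block fits WT-BAPN replicate 7 exactly and takes nothing from it. The members' median between WT-BAPN and WT was -0.72 with the block, and -0.72 without that library. Same-numbered libraries deviated together in only 16 of 33 pairs (correlation over 0.1; range -0.52 to 0.57), and 4 libraries correlated best with their own number, so the numbers are not taken to pair animals. With mitochondrial and the 100 most abundant other genes left out of the total, the share was 7.90% in KI-BAPN, 6.34% in KI, 5.09% in WT-BAPN and 6.61% in WT, the same order. Initiation factors had 0 to 21 calls and assembly genes 2 to 18 over all settings. These lowest counts occurred without WT replicate 1, where 2.3% of all genes were called. The highest came with limma voom, where 29.7% were. The members' median for KI against WT was -0.11, and 0.03 without the 4 libraries with RNA of other tissue. The fit of only the groups compared could not be run for the interaction. Sequence shared with pseudogenes makes single-gene values uncertain. For the ribosomal share, the spread between animals was far wider than the counting error. Rpl36al and Rpl24 had few reads, with mean counts of 7.83 and 26.7 per library. The causes of these differences between settings were not tested.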
